A study of Homo sapiens with 20 samples.

Results

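RAB15, TMEM171, KIAA0040, HRH1 and WDR81 are 5 of the 58870 genes counted in A375 and 1205Lu cells, 2 human melanoma cell lines, after silencing of FRA1, the protein that the FOSL1 gene encodes. They were selected on their change upon silencing, as genes for which 1 of the lines had shown the larger change, so their own mRNA changes are given as a description with no test. HRH1 and WDR81 appear to have been selected in addition on the FRA1 signal at their promoters, which was among the highest in both lines, and that signal is likewise only described. RNA-seq covered 12 samples, with 3 of each line given non-targeting siRNAs (si-NT) and 3 of each line given siRNAs against human FRA1 (si-FRA1). Cut&Run, in which an antibody directs a nuclease to the chromatin around a bound protein, covered 8 samples of cells with no siRNA named in their labels, with 3 FRA1 samples and 1 control IgG sample in each line. The labels do not say whether replicates were separate cultures, so the spread between them may be technical, and each line stands for itself alone.

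FRA1 is a Fos-family member of the transcription factor AP-1. It pairs with a Jun protein and binds short DNA sites, and in melanoma it is produced downstream of ERK signaling. The 5 genes have little in common by function. RAB15 encodes a small GTPase of early and recycling endosomes, TMEM171 a transmembrane protein with no well-defined role, and KIAA0040 a protein that has hardly been characterized. HRH1 encodes the histamine H1 receptor, which signals through Gq proteins to phospholipase C, and WDR81 encodes a WD-repeat and BEACH-domain protein that acts in endosome maturation and in the clearance of protein aggregates by autophagy.

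RAB15, TMEM171 and KIAA0040 were lower in every si-FRA1 sample than in every si-NT sample of both lines. RAB15 had the larger change in A375 cells, TMEM171 and KIAA0040 in 1205Lu cells. The name under which the 5 genes were grouped, responders stronger in 1 line, did not hold for HRH1 and WDR81, whose changes stayed inside a log2 fold change of 0.5 in both lines. Calls required a Benjamini-Hochberg adjusted p under 0.05 in the quasi-likelihood test of edgeR together with a log2 fold change, si-FRA1 over si-NT, beyond 1 in either direction. In A375 cells 3 of the 5 genes lay past both limits downward, where 2.51% of protein-coding genes fell, and in 1205Lu cells 2 of the 5 did, where 1.86% fell. None lay past the limits upward, where 2.78% of protein-coding genes rose in A375 cells and 1.11% in 1205Lu cells. Nothing is read from these counts, because the genes were selected on the same contrast. The value nearest to the fold limit among those past it was that of KIAA0040 in A375 cells at -1.17, and the nearest among those short of it was that of RAB15 in 1205Lu cells at -0.96.

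The sequences below are parts of the FRA1 peaks to which the results on binding return. They are the plus strand of GRCh38, read from the reference genome, and capitals mark the AP-1 site TGACTCA or TGAGTCA, which are reverse complements of each other. The 2 sites of the strongest peak near RAB15, 33.2 kb before its start, stand close together.
RAB15, chr14:65006593-65006653: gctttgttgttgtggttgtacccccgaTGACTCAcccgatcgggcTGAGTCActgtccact
The peak nearest to a start of RAB15 held no such site, and its center is shown for comparison.
RAB15, chr14:64971087-64971147: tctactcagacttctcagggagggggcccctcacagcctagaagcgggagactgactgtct
The peak 5.1 kb before the start of TMEM171 held none either, and its center is shown because it was the strongest peak near that gene in 1205Lu cells.
TMEM171, chr5:73115481-73115541: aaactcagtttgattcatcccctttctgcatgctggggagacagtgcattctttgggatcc
The strongest peak near KIAA0040 lies in an intron, with a site 14 bp from its center.
KIAA0040, chr1:175169421-175169481: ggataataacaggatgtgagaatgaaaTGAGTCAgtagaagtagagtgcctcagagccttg
The promoter peak of HRH1 held 2 sites, of which the second lies in the annotated first exon.
HRH1, chr3:11136884-11136944: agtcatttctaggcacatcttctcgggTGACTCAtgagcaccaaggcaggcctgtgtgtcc
HRH1, chr3:11137156-11137184: tttagtcagacTGAGTCActtcaaggagg
A peak 75.3 kb into HRH1 and a peak 151.7 kb from its start, inside ATG7, are shown because their FRA1 signal differed between the lines in opposite directions.
HRH1, chr3:11212343-11212403: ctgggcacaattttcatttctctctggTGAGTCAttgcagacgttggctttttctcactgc
HRH1, chr3:11289256-11289316: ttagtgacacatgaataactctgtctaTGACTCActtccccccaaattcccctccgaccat
The promoter peak of WDR81 held 1 site, 1077 bp from its center.
WDR81, chr17:1717132-1717192: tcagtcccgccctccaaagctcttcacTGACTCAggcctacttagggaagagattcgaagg

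Silencing was visible in the targeted gene in every sample. FOSL1 mRNA, in CPM, the count scaled to the TMM library sizes of all 12 samples, was 408 to 424 in A375 si-NT samples and 25.7 to 26.0 in A375 si-FRA1 samples. In 1205Lu cells it was 478 to 492 with si-NT and 65.1 to 70.9 with si-FRA1, so 6.22% of the si-NT level was left in A375 cells and 14.1% in 1205Lu cells. The depth of silencing therefore differed between the lines beside every difference between them given below, and its part in those differences was not tested. RNA-seq totals lay between 20573412 and 32518903 counts per sample. Of 9 melanocyte-lineage markers, 5 reached a mean of 1 CPM in A375 cells and 4 in 1205Lu cells. MITF, SOX10, S100B and S100A1 reached it in both lines and TYRP1 in A375 cells alone, with PMEL, MLANA, TYR and DCT under 1 CPM in both. The summed level of the 9 was nonetheless far higher in 1205Lu cells, at 1260 to 1558 CPM, than in A375 cells, at 98.3 to 106 CPM. In bulk samples, fewer cells of a kind and less RNA per cell cannot be told apart. RAB15, HRH1 and WDR81 overlap genes on the other strand, and the strand setting of the counting is not given in the sources used here. HRH1 also overlaps ENSG00000288969 on its own strand. Reads of such partners therefore cannot be told apart.

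RAB15 (ENSG00000139998.15, chr14:64945814-64973226, minus strand, GRCh38) was the member with the largest change in A375 cells. Its level was 58.3, 60.5 and 57.8 CPM in the A375 si-NT samples and 9.43, 8.97 and 10.5 CPM in the A375 si-FRA1 samples. The 1205Lu samples gave 29.9, 30.3 and 32.2 CPM for si-NT, then 16.0, 17.1 and 14.8 CPM for si-FRA1. The groups did not overlap in either line, and A375 cells went from the highest level of the 4 groups to the lowest. The log2 fold change was -2.62 (SE 0.06, n = 3 and 3) in A375 cells, with 16.4% of the si-NT level left, and -0.96 (SE 0.07, n = 3 and 3) in 1205Lu cells, with 52.0% left. RAB15 was 11th from the most negative of 13598 protein-coding genes in A375 cells and 371st of 13728 in 1205Lu cells. The difference of the log2 fold changes, A375 minus 1205Lu, was -1.67 (SE 0.10). In 1205Lu cells the value lay just past the fold limit without si-FRA1 replicate 2.

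TMEM171 (ENSG00000157111.13, chr5:73120569-73131809, plus strand) had a low level in A375 cells throughout. Its level was 23.5, 21.2 and 22.3 CPM in the 1205Lu si-NT samples and 4.38, 5.18 and 5.45 CPM in the 1205Lu si-FRA1 samples. The A375 samples gave 4.75, 4.23 and 4.64 CPM for si-NT, then 2.42, 1.38 and 1.38 CPM for si-FRA1, the last group resting on 79, 33 and 34 counts. The 1205Lu samples with si-FRA1 thus reached about the level of the A375 samples with si-NT, and these 2 groups overlapped. The log2 fold change was -2.18 (SE 0.10, n = 3 and 3) in 1205Lu cells, with 22.4% left, and -1.37 (SE 0.22, n = 3 and 3) in A375 cells, with 38.0% left. The difference, A375 minus 1205Lu, was 0.81 (SE 0.23). It was 0.43 without A375 si-FRA1 replicate 1, the sample with the highest TMEM171 level of its group, and the A375 log2 fold change was then -1.72.

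KIAA0040 (ENSG00000235750.10, chr1:175156986-175192999, minus strand) had the largest change of the 5 genes in 1205Lu cells. Its level was 21.7, 19.6 and 20.6 CPM in the 1205Lu si-NT samples and 3.60, 2.99 and 3.20 CPM in the 1205Lu si-FRA1 samples. The A375 samples gave 10.4, 14.0 and 12.7 CPM for si-NT, then 5.14, 6.01 and 5.46 CPM for si-FRA1. None of these groups overlapped another. The order of the lines turned with silencing, since KIAA0040 was 1.66-fold higher in 1205Lu than in A375 cells with si-NT and 1.70-fold higher in A375 than in 1205Lu cells with si-FRA1. The log2 fold change was -2.68 (SE 0.11, n = 3 and 3) in 1205Lu cells, 5th from the most negative of the protein-coding genes, and -1.17 (SE 0.12, n = 3 and 3) in A375 cells, where it was 234th. The difference, A375 minus 1205Lu, was 1.49 (SE 0.18).

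HRH1 (ENSG00000196639.6, chr3:11137093-11263557, plus strand) differed far more between the lines than between treatments. Its level was 87.3, 88.7 and 87.1 CPM in the 1205Lu si-NT samples and 96.2, 89.2 and 95.9 CPM in the 1205Lu si-FRA1 samples. The A375 samples gave 15.1, 14.8 and 12.1 CPM for si-NT, then 11.8, 11.9 and 12.5 CPM for si-FRA1. The 2 treatments overlapped in A375 cells and did not in 1205Lu cells, where the lowest si-FRA1 sample was above the highest si-NT sample by less than 1 CPM. The log2 fold change was -0.22 (SE 0.10, n = 3 and 3) in A375 cells and 0.08 (SE 0.04, n = 3 and 3) in 1205Lu cells. Between the lines, the si-NT level was 6.26-fold higher in 1205Lu cells.

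WDR81 (ENSG00000167716.18, chr17:1716523-1738599, plus strand) was lower with si-FRA1 in A375 cells by a small amount. Its level was 27.5, 29.95 and 28.1 CPM in the A375 si-NT samples and 20.9, 22.1 and 19.8 CPM in the A375 si-FRA1 samples, which did not overlap. The 1205Lu samples gave 14.2, 13.0 and 12.8 CPM for si-NT, then 14.5, 16.7 and 13.9 CPM for si-FRA1, which did overlap. The log2 fold change was -0.45 (SE 0.07, n = 3 and 3) in A375 cells, with 73.3% left, and 0.15 (SE 0.09, n = 3 and 3) in 1205Lu cells. The difference, A375 minus 1205Lu, was -0.62 (SE 0.11) for WDR81 and -0.31 (SE 0.09) for HRH1.

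**Figure D1:**
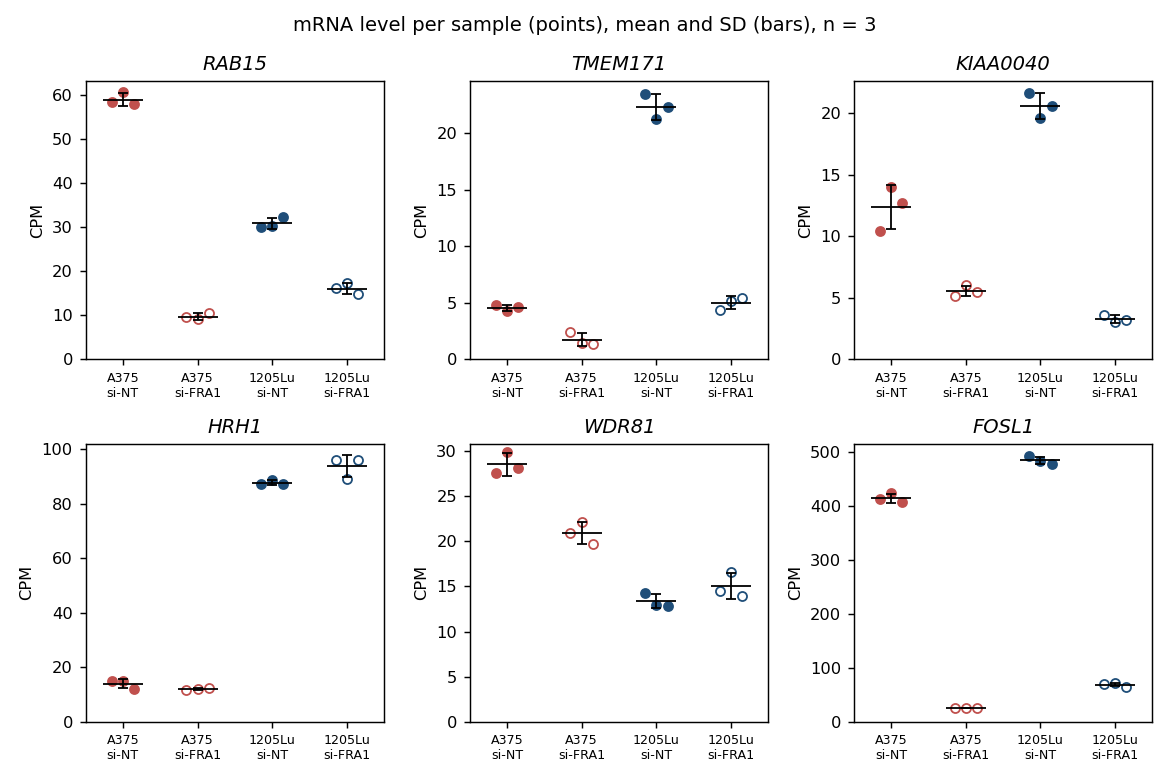
Level of each of the 5 genes and of FOSL1 in CPM (vertical axes, each from 0) in the 4 groups of 3 samples. Points are samples, filled for si-NT and open for si-FRA1, red for A375 and blue for 1205Lu, and the bars give the mean and SD. RAB15 went from 58.9 to 9.63 CPM on average in A375 cells, while HRH1 stood at 87.7 and 93.7 CPM in 1205Lu cells.

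Levels were compared between genes only per kb of annotated exon. In A375 si-NT samples RAB15 was highest, at 11.9 CPM per kb. TMEM171 at 3.63 and WDR81 at 3.53 CPM per kb followed and overlapped over the samples, as did KIAA0040 at 2.60 and HRH1 at 2.51 CPM per kb behind them. In 1205Lu si-NT samples the order was TMEM171 at 17.9, HRH1 at 15.7, RAB15 at 6.23, KIAA0040 at 4.32 and WDR81 at 1.65 CPM per kb, and no 2 neighbors overlapped. In the units of the samples, RAB15 lost 49.2 CPM on average in A375 cells and 14.8 CPM in 1205Lu cells upon silencing, TMEM171 lost 2.82 and 17.4 CPM, and KIAA0040 lost 6.85 and 17.3 CPM.

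**Figure D2:**
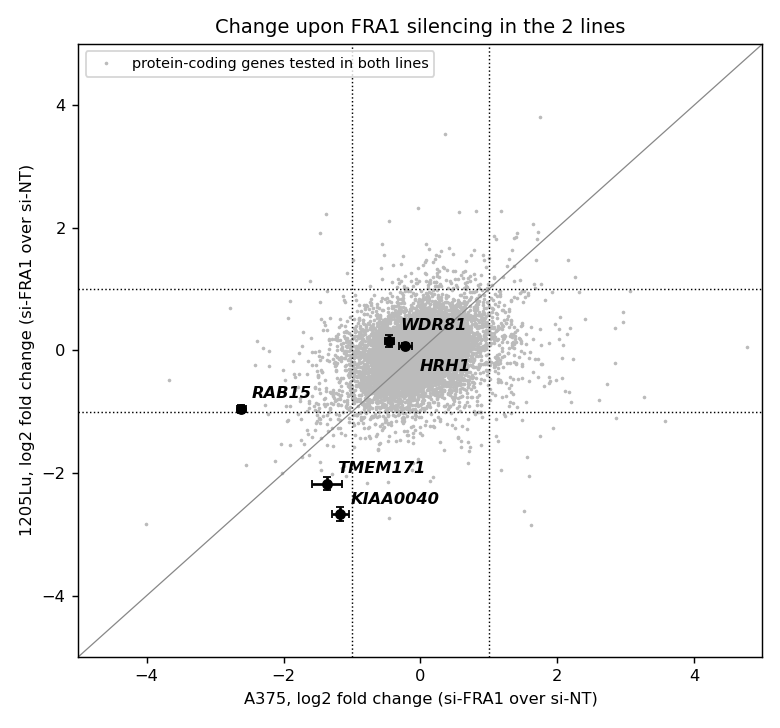
Log2 fold change, si-FRA1 over si-NT, in A375 cells (horizontal axis) and 1205Lu cells (vertical axis) for the 12638 protein-coding genes tested in both lines (gray) and the 5 genes (black, with the SE in each direction). Dotted lines mark a log2 fold change of 1 in either direction, and the diagonal marks equal change. RAB15 lies far to the left at -2.62 and -0.96, TMEM171 and KIAA0040 lie low at -2.18 and -2.68 in 1205Lu cells, and HRH1 and WDR81 lie within the cloud.

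For each gene, the 3 other protein-coding genes with the most similar profile were found by Pearson's r of log2 CPM over the 12 samples among 11148 genes. The 12 samples form 4 tight groups, so r describes the order and spacing of 4 levels. RAB15 was closest to ATP6V0C, a subunit of the vacuolar proton pump (r = 0.992), AXL, a receptor tyrosine kinase (r = 0.991), and ZDHHC8, a palmitoyltransferase (r = 0.987). AXL went from 715 to 191 CPM in A375 cells and from 499 to 269 CPM in 1205Lu cells. TMEM171 was closest to FSCN1, which bundles actin filaments (r = 0.991), HYOU1, a chaperone of the endoplasmic reticulum (r = 0.985), and RNF169 (r = 0.983). FSCN1 went from 476 to 119 CPM in 1205Lu cells and from 112 to 45.7 CPM in A375 cells. KIAA0040 was closest to the histone gene HIST1H3C (r = 0.984), the zinc transporter gene SLC39A6 (r = 0.977) and CNIH1 (r = 0.974), whose log2 fold changes in 1205Lu cells were -0.81, -1.12 and -1.19. HRH1 was closest to CLMN (r = 0.999), BMP8B (r = 0.999) and WLS, which carries Wnt proteins to the cell surface (r = 0.999), all far higher in 1205Lu than in A375 cells. WDR81 was closest to FAM167A (r = 0.991), SMARCC2, a subunit of a chromatin remodeling complex (r = 0.991), and RAD1 (r = 0.989).

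The genes beside the 5 members were tested, since they had no part in the selection. Of 53 protein-coding genes with a start within 500 kb of a start of a member, 43 were tested in each line. In A375 cells 1 rose and none fell by edgeR, and in 1205Lu cells 1 rose and 1 fell. Of all protein-coding genes, 2.78% rose and 2.51% fell in A375 cells, and 1.11% rose and 1.86% fell in 1205Lu cells. The counts of called neighbors were near these shares. At an unadjusted p under 0.05, 16 neighbors were lower and 11 higher in A375 cells, or 62.8% of the 43, beside 62.1% of all protein-coding genes. In 1205Lu cells 11 were lower and 12 higher, or 53.5%, beside 53.6% of all. The shares at an unadjusted p under 0.05 lay close to those of all genes in both lines. The median log2 fold change of these neighbors was 0.02 in A375 cells and -0.07 in 1205Lu cells, beside 0.01 and -0.00 over all protein-coding genes.

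Next to RAB15 lie GPX2 and CHURC1-FNTB, which were too low to be tested, and FNTB, the beta subunit of farnesyltransferase, with log2 fold changes of -0.06 (adjusted p = 0.685) in A375 cells and -0.26 (adjusted p = 0.0109) in 1205Lu cells. Next to TMEM171 lie TMEM174, too low to be tested, FCHO2, which acts in clathrin-mediated endocytosis, and TNPO1, a nuclear import receptor. FCHO2 had log2 fold changes of 0.27 (adjusted p = 2.38e-04) in A375 cells and -0.15 (adjusted p = 0.191) in 1205Lu cells, and TNPO1 of 0.10 and 0.39. Next to KIAA0040 lie TNN, too low to be tested, MRPS14, a protein of the small mitochondrial ribosomal subunit, and CACYBP. MRPS14 fell in 1205Lu cells, from 14.9 ± 1.22 to 6.43 ± 0.243 CPM (mean ± SD, n = 3), a log2 fold change of -1.22 (SE 0.11, adjusted p = 1.57e-08). In A375 cells it was -0.97 (SE 0.09, adjusted p = 2.42e-09), just short of the fold limit, and its difference between the lines was 0.24 (adjusted p = 0.213). CACYBP was -0.09 and -0.40 in A375 and 1205Lu cells.

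Next to HRH1 lie ATG7, the E1-like enzyme of autophagy, and SLC6A11, and further away ATP2B2, a plasma membrane calcium pump. ATG7 had log2 fold changes of -0.47 (adjusted p = 6.67e-05) in A375 cells and -0.00 (adjusted p = 0.989) in 1205Lu cells. ATP2B2 rose in 1205Lu cells from 1.18 to 3.32 CPM, a log2 fold change of 1.49 (SE 0.26, adjusted p = 1.09e-04), and was too low for a test in A375 cells. SLC6A11 was under 1 CPM on average in every group and did not pass the limits. Next to WDR81 lie TLCD2, SERPINF2 and SERPINF1, of which SERPINF1 rose in A375 cells from 1.05 to 2.24 CPM, a log2 fold change of 1.08 (SE 0.30, adjusted p = 4.52e-03). That call was lost without A375 si-FRA1 replicate 1, at 0.95, and without A375 si-NT replicate 1, at 0.83. The difference between the lines had an adjusted p under 0.05 for 7 of the 15 named neighbor and list genes, where 38.7% of all protein-coding genes did.

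Calls in the gene lists around the members are set beside those of all protein-coding genes. Of these, 2.51% fell and 2.78% rose in A375 cells, and 1.86% fell and 1.11% rose in 1205Lu cells. With shares so small, few or no calls in a list of this size are no result about the list. Of 29 tested Rab GTPases of endosomes and recycling and their partners, none was called in either line by edgeR or DESeq2. At an unadjusted p under 0.05 were 24 of them (82.8%) in A375 cells, where 62.1% of all protein-coding genes were, and 19 (65.5%) in 1205Lu cells, where 53.6% were. The list's median was 0.01 on the log2 scale for A375 and 0.02 for 1205Lu. Of 26 partners of WDR81 in endosome maturation and autophagy, none was called in either line by edgeR or DESeq2. At an unadjusted p under 0.05 were 19 (73.1%) in A375 cells and 18 (69.2%) in 1205Lu cells. By edgeR's adjusted p under 0.05, 13 were higher and 6 lower in A375 cells, and 13 higher and 4 lower in 1205Lu cells. Of all protein-coding genes, 7845 of 13598 had such an adjusted p in A375 cells and 6449 of 13728 in 1205Lu cells, counting both directions. The median was 0.15 in A375 cells and 0.20 in 1205Lu cells. Of 15 tested genes of histamine and Gq signaling, 2 rose in A375 cells, where 2.78% of all protein-coding genes did, and 1 rose in 1205Lu cells, where 1.11% did. None of the 15 fell in either line by edgeR, and 13 (86.7%) in each line had an unadjusted p under 0.05. DESeq2 also called 2 and 1. All 3 encode regulators of G protein signaling, which shorten the active state of G proteins. RGS2 rose in A375 cells by a log2 fold change of 1.14 (SE 0.09, adjusted p = 2.64e-10), from 8.06 to 17.9 CPM. RGS4 rose in A375 cells by 1.21 (SE 0.09, adjusted p = 9.39e-11), from 10.6 to 24.7 CPM, and stood at 0.12 and 0.20 CPM in 1205Lu cells. RGS3 rose in 1205Lu cells by 1.2996 (SE 0.09, adjusted p = 1.56e-10), from 10.1 to 25.3 CPM, and its log2 fold change in A375 cells was 0.66.

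FRA1 binding was read from counts in the 54563 consensus peaks, of which 43 lay within 50 kb of one of the 5 genes. HRH1, the longest gene, had 20 of them, more than 99.0% of protein-coding genes had, or 8.83 per 100 kb. KIAA0040 had 7, WDR81 6, and RAB15 and TMEM171 5 each. Over the 12638 protein-coding genes tested in both lines, the median number was 4 and the median density 2.72 per 100 kb. Totals in peaks were 3354095 to 5316527 counts in the A375 FRA1 samples, 583750 to 897407 in the 1205Lu FRA1 samples, 383994 in the A375 IgG sample and 314569 in the 1205Lu IgG sample. For a peak to be taken as enriched, no FRA1 sample of the line could have fewer than 10 counts or fewer than 4 times the sum of the IgG count and 1. The line's IgG sample being single, this is a description, and a line with deeper FRA1 samples passes it more easily.

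By this limit 25 of the 43 peaks were enriched in A375 cells, where 57.4% of all peaks were, and 9 in 1205Lu cells, where 7.09% were. In both lines 8 were enriched, beside 4.5% of all peaks. The promoter peaks of HRH1 and WDR81 are among these 8. Both genes are taken as selected on that signal, so nothing is read from these counts. With the counts of every sample scaled to the same total, only 2 of the 43 stayed enriched in A375 cells, beside 0.783% of all peaks, and 5 in 1205Lu cells, beside 3.04%. The 2 in A375 cells were the peak 33.2 kb before the start of RAB15 and the promoter peak of HRH1. The 5 in 1205Lu cells were the intronic peak of KIAA0040 and 4 peaks of HRH1, its promoter peak among them. Within 3 kb of an annotated start, 4 of the 5 genes had an enriched peak in A375 cells, where 35.5% of protein-coding genes had one, and 3 had one in 1205Lu cells, where 5.03% did. HRH1 and WDR81 are among these genes in both lines, so nothing is read from these counts either.

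The difference in FRA1 between the lines was tested with edgeR over all peaks, with 1205Lu replicates 2 and 3 averaged because their counts differed by no more than sampling noise, and it is given as log2 of A375 over 1205Lu, so that a negative value means a larger share of FRA1 counts in 1205Lu cells. Without the promoter peaks of HRH1 and WDR81, 40 peaks near the members were tested. Of these 7 had more in A375 cells, where 25.9% of all peaks did, and 12 had more in 1205Lu cells, where 22.5% did. Among the 12 are peaks near RAB15, KIAA0040, HRH1 and WDR81 that passed the limit over IgG in neither line, and among the 7 is such a peak near KIAA0040. Differences at those peaks may not reflect FRA1. With DESeq2 the balance over all peaks moved from 53.6% of calls with more in A375 cells to 42.7%, and 4 member peaks then had more in A375 cells.

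Near RAB15, 3 of the 4 peaks tested had a larger share of FRA1 counts in 1205Lu cells, and of these only the strongest passed the limit over IgG. The strongest, chr14:65005945-65006964, lies 33.2 kb before the start of RAB15 inside the spans of FNTB and MAX, and is the peak with the pair of AP-1 sites shown above. It had 63, 86 and 76 counts in A375 FRA1 samples with 1 in IgG, and 49, 102 and 85 in 1205Lu FRA1 samples with 8 in IgG. The 1205Lu counts were as high as the A375 counts despite the smaller totals, and as CPM of each sample's total in peaks the means were 17.6 and 102. The log2 difference was -2.63 (SE 0.20, adjusted p = 3.83e-14).

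The peak chr14:64986774-64987137, at the start of FNTB, had 31, 49 and 32 counts in A375 cells with 8 in IgG and 16, 37 and 25 in 1205Lu cells with 6 in IgG, a log2 difference of -2.03 (adjusted p = 2.10e-07). The peak chr14:64994754-64995501 had 3, 3 and 7 counts in A375 cells with 2 in IgG and 11, 21 and 17 in 1205Lu cells with 6 in IgG, a log2 difference of -4.43 (adjusted p = 6.49e-09). As CPM in peaks, FRA1 and IgG in 1205Lu cells stood at 33.5 and 19.1 in the peak at FNTB and at 21.3 and 19.1 in the other. In A375 cells FRA1 was below IgG in both, at 8.66 and 20.8 and at 1.03 and 5.21. Neither passed the limit over IgG in a line, so these differences may not reflect FRA1. The promoter peak, chr14:64970915-64971320, lies in an intron of RAB15 and 777 bp from its nearest annotated start. It had 26, 35 and 29 counts in A375 cells with 0 in IgG and 2, 3 and 1 in 1205Lu cells with 4 in IgG. It was enriched in A375 cells alone, yet its log2 difference of 1.19 (SE 0.64, adjusted p = 0.126) did not pass the test.

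Near TMEM171, the peak chr5:73115101-73115922, 5.1 kb before its start, was enriched in both lines. It had 32, 74 and 59 counts in 1205Lu cells with 5 in IgG and 41, 65 and 49 in A375 cells with 3 in IgG. Its share was higher in 1205Lu cells, with a log2 difference of -2.62 (SE 0.23, adjusted p = 1.94e-12), and this peak held no AP-1 site, although 63.3% of peaks of similar width did. The promoter peak, chr5:73120907-73121473, was weak, with 10, 22 and 20 counts in A375 cells and 3, 6 and 4 in 1205Lu cells, passed the limit over IgG in neither line, and had a log2 difference of -0.59 (adjusted p = 0.449). The peak 26.3 kb before the start had 55, 68 and 47 counts in A375 cells and 6, 14 and 13 in 1205Lu cells, a log2 difference of -0.20 (adjusted p = 0.687). The peak 60.5 kb beyond it, with 19, 47 and 37 counts in A375 cells and 1, 4 and 1 in 1205Lu cells, had more in A375 cells at 1.78 (adjusted p = 0.0322), a call lost in 5 of 12 fits, namely with DESeq2 and without A375 replicate 2 or 3 or 1205Lu replicate 1 or 3.

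Near KIAA0040, the strongest peak in both lines was chr1:175168959-175169971, in an intron 23.5 kb from the first start and 2.7 kb from another annotated start. It had 42, 82 and 57 counts in 1205Lu cells with 3 in IgG and 74, 160 and 113 in A375 cells with 11 in IgG. As CPM in peaks, FRA1 averaged 78.8 with 9.54 for IgG in 1205Lu cells, and 26.2 with 28.6 for IgG in A375 cells. The log2 difference was -1.67 (SE 0.20, adjusted p = 6.10e-09). The peak at the first start, chr1:175193054-175194018, had 28, 37 and 50 counts in A375 cells with 9 in IgG and 10, 12 and 6 in 1205Lu cells with 5 in IgG, was enriched in neither line, and had a log2 difference of -0.69 (adjusted p = 0.157). The peak 34.6 kb from the start, in an exon, had 25, 39 and 28 counts in A375 cells and 16, 27 and 32 in 1205Lu cells, with 7 in IgG in each line, a log2 difference of -2.28 (adjusted p = 3.30e-08). It passed the limit over IgG in neither line. As CPM in peaks, FRA1 and IgG stood at 7.12 and 18.2 in A375 cells and at 32.8 and 22.3 in 1205Lu cells. The peak 46.7 kb from the start had 25, 41 and 45 counts in A375 cells and 3, 5 and 1 in 1205Lu cells, a log2 difference of 0.91 (adjusted p = 0.180). The peak 16.6 kb from the start, in an exon, had 15, 47 and 25 counts in A375 cells with 4 in IgG and 1, 1 and 0 in 1205Lu cells with 2 in IgG. Its log2 difference was 3.06 (SE 1.02, adjusted p = 0.0121), with more in A375 cells. The limit over IgG was passed there in neither line. As CPM in peaks, FRA1 was below IgG in both, at 6.40 and 10.4 in A375 cells and at 0.942 and 6.36 in 1205Lu cells, so this difference may not reflect FRA1. That KIAA0040 peak was not called with DESeq2, and its value was 7.51 without 1205Lu replicate 1, which left almost no counts in that line.

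**Figure D3:**
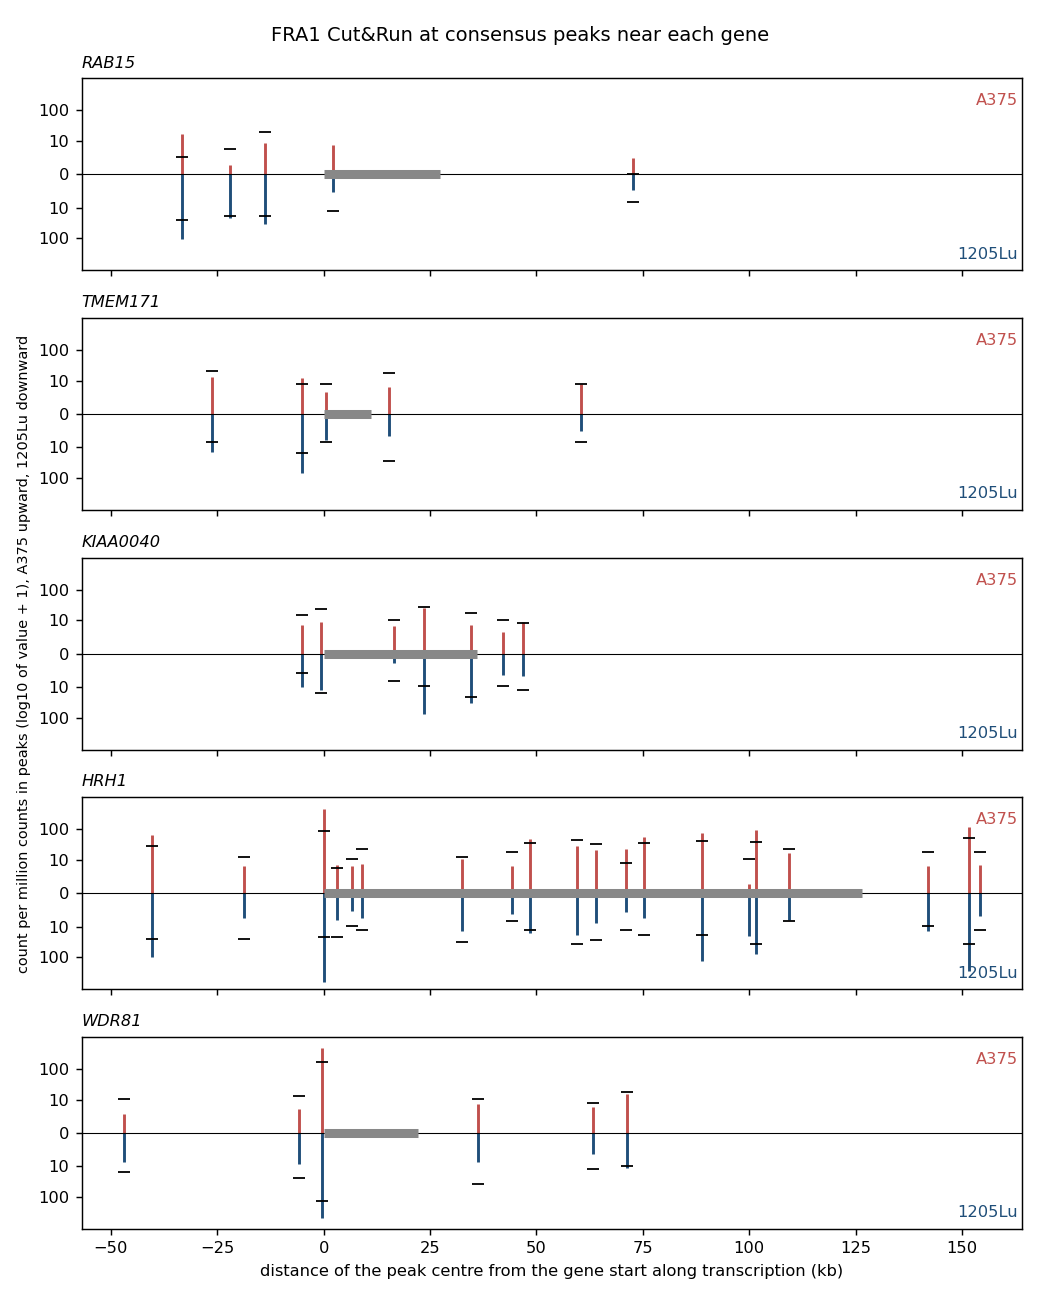
Mean FRA1 CPM in peaks (vertical axis, log10 of the value plus 1) at the 43 peaks near the 5 genes, against the distance of the peak center from the gene start along transcription in kb. Red lines point up for A375 cells and blue lines down for 1205Lu cells, black dashes give the single IgG sample of each line, and gray bars the gene. The RAB15 peak at -33.2 kb reaches 17.6 in A375 and 102 in 1205Lu cells, and the promoter peaks of HRH1 and WDR81 tower over the rest in both.

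HRH1 had one of the strongest peaks of the whole table at its promoter. The peak chr3:11136319-11137890, over the first exon, had 1521, 2081 and 1741 counts in A375 cells with 33 in IgG, and 322, 541 and 478 in 1205Lu cells with 7 in IgG. Its mean count was 10th of all 54563 peaks in A375 cells and 12th in 1205Lu cells. As CPM in peaks, FRA1 averaged 418 in A375 cells and 589 in 1205Lu cells. HRH1 mRNA was 6.26-fold higher in 1205Lu cells, while the change upon silencing was small in both.

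Besides the peak over the first exon, 19 peaks of HRH1 were tested. Of these 5 (26.3%) had more in A375 cells, where 25.9% of all peaks did, and 5 (26.3%) had more in 1205Lu cells, where 22.5% did. The 19 include the peaks 3.2 kb from the start and 100 bp before an internal start, which also reach within 3 kb of an annotated start. The peak chr3:11287938-11289655, 151.7 kb from the start and inside ATG7, had 414, 611 and 482 counts in A375 cells with 20 in IgG, and 135, 272 and 206 in 1205Lu cells with 12 in IgG. It had more in 1205Lu cells, with a log2 difference of -1.26 (SE 0.17, adjusted p = 3.00e-08). The peak chr3:11225395-11226467, 100 bp before an internal start, averaged 72.7 CPM in peaks in A375 cells, with 41.7 in IgG, and 135 in 1205Lu cells, with 19.1 in IgG, and had a log2 difference of -0.98 (adjusted p = 8.48e-06). The peak 101.6 kb into the gene, with 260, 562 and 403 counts in A375 cells and 38, 75 and 62 in 1205Lu cells, had a log2 difference of 0.22 (adjusted p = 0.400), which was -0.22 without 1205Lu replicate 1. The weak peak 3.2 kb from the start, with 21, 34 and 32 counts in A375 cells and 6, 2 and 4 in 1205Lu cells, had one of -0.02 (adjusted p = 0.977).

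A further pair of peaks inside HRH1, picked after their values were seen, showed the widest contrasts of the 40 tested in each direction. The peak chr3:11211778-11213041 had 167, 322 and 254 counts in A375 cells with 14 in IgG, against 3, 4 and 4 in 1205Lu cells with 6 in IgG, a log2 difference of 3.42 (SE 0.39, adjusted p = 1.08e-09). The peak chr3:11236659-11237408 had 14, 22 and 12 counts in 1205Lu cells with 0 in IgG, against 4, 6 and 2 in A375 cells with 4 in IgG, a log2 difference of -4.60 (SE 0.53, adjusted p = 1.87e-09). The gene that was 6.26-fold higher in 1205Lu cells thus held peaks that differed in either direction.

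WDR81 had a single strong peak, and it covers more than 1 start. The peak chr17:1714498-1717672 is 3175 bp wide and holds the start of WDR81 and that of MIR22HG, the host gene of a microRNA on the other strand, so its counts cannot be assigned to either. It had 1419, 2336 and 1890 counts in A375 cells with 62 in IgG, and 231, 450 and 344 in 1205Lu cells with 43 in IgG. Its mean count was 6th of all peaks in A375 cells and 35th in 1205Lu cells. The IgG sample was also high there, and as CPM in peaks FRA1 and IgG stood at 435 and 161 in A375 cells and at 446 and 137 in 1205Lu cells. MIR22HG had log2 fold changes of 0.11 (adjusted p = 0.329) in A375 cells and -0.25 (adjusted p = 4.16e-03) in 1205Lu cells. The 250 bases before the start of WDR81 in RefSeq (GRCh38.p14, chr17:1716273-1716522, plus strand) lie inside this peak and held none of the motifs searched.
WDR81 promoter: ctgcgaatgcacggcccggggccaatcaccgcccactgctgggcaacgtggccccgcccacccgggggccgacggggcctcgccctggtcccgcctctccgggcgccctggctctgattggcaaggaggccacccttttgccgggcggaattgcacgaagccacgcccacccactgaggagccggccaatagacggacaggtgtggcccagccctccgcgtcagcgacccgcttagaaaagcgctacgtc

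The other 5 peaks near WDR81 were low. The peak 71.3 kb from the start had 48, 91 and 57 counts in A375 cells with 7 in IgG and 2, 8 and 18 in 1205Lu cells with 3 in IgG, a log2 difference of 0.41 (adjusted p = 0.432) that ranged from -0.47 to 1.02 with 1 sample left out, the lowest without 1205Lu replicate 1. The peak 36.3 kb from the start had 27, 29 and 30 counts in A375 cells and 7, 4 and 4 in 1205Lu cells, with 4 and 12 in IgG, a log2 difference of -0.32 (adjusted p = 0.625). The peak 5.9 kb before the start had 16, 27 and 16 counts in A375 cells and 8, 5 and 4 in 1205Lu cells, with 5 and 8 in IgG, a log2 difference of -0.99 (adjusted p = 0.117). The peak 46.8 kb before the start, with 9, 17 and 10 counts in A375 cells and 5, 2 and 9 in 1205Lu cells, and 4 and 5 in IgG, had more in 1205Lu cells at -1.57 (adjusted p = 0.0292), a call lost without A375 replicate 3 or 1205Lu replicate 1 or 3. It passed the limit over IgG in neither line. As CPM in peaks, FRA1 and IgG stood there at 2.74 and 10.4 in A375 cells and at 7.44 and 15.9 in 1205Lu cells.

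The AP-1 site, searched as TGACTCA or TGAGTCA, occurred in 24 of the 43 peaks (55.8%), beside 57.7% of all peaks. Within 100 bp of the peak center it occurred in 13 (30.2%), beside 28.6%. The shares near the members were close to those of all peaks. The CRE site TGACGTCA occurred in 0 of the 43, beside 1.33% of all peaks, the TEAD motif GGAATGT in 7 beside 17.7%, the ETS motif CCGGAAG or CCGGAAA in 2 beside 8.75%, and the RUNX motif TGTGGTT in 9 beside 17.3%, all on both strands and with no overlap between motifs required. In RefSeq, promoters of TMEM171, KIAA0040, HRH1 and WDR81 were found. In the 250 bases before the listed start only 1 of them, the first of HRH1, held an AP-1 site, beside 4.20% of 35116 promoters.

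The height of the promoter peak and the size of the mRNA change are set side by side as a description, since the genes were selected on both. By the highest FRA1 peak within 3 kb of an annotated start, WDR81 and HRH1 averaged 1882 and 1781 counts in A375 cells, with log2 fold changes of -0.45 and -0.22. KIAA0040 averaged 116 counts there, RAB15 30 and TMEM171 17.3, with log2 fold changes of -1.17, -2.62 and -1.37. In 1205Lu cells, HRH1 averaged 447 counts and WDR81 342, with log2 fold changes of 0.08 and 0.15. Among the other 3 in 1205Lu cells, KIAA0040 had the highest peak, at 60.3 counts, and the largest change, ahead of TMEM171 at 4.33 and RAB15 at 2.00 counts. No single order of peak height and change held in both lines.

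Over all genes, 10 of the 100 with the highest promoter counts in A375 cells fell and 1 rose, beside 2.23% fallen and 1.87% risen among all genes with an enriched promoter peak there. In 1205Lu cells 2 of the 100 fell, beside 1.89% of the genes with an enriched promoter peak.

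**Figure D4:**
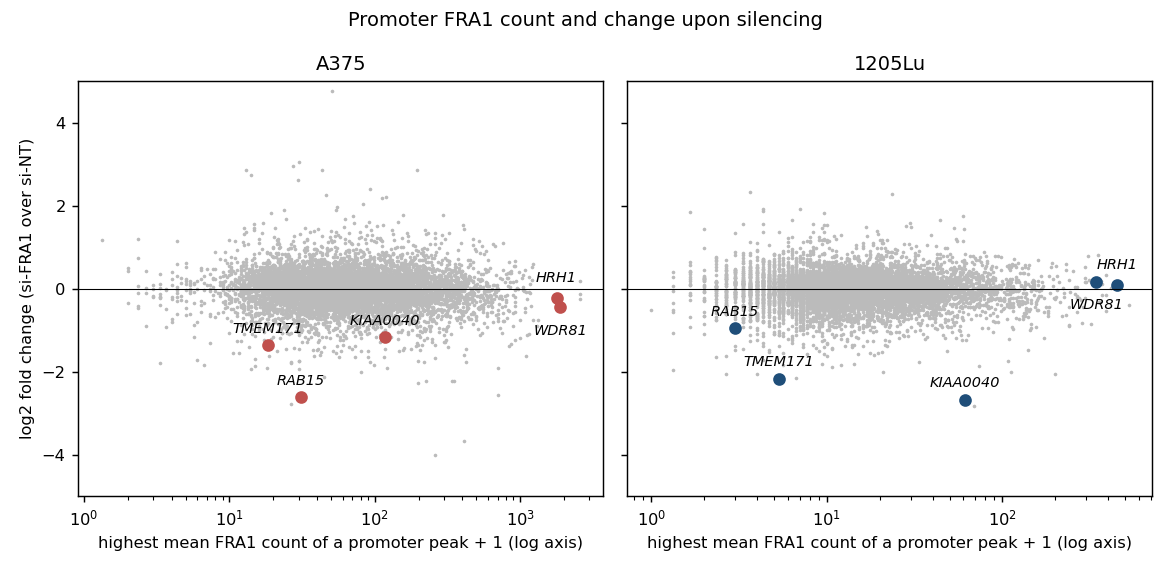
Highest mean FRA1 count of a peak within 3 kb of an annotated start, plus 1 (horizontal log axis), and log2 fold change upon silencing (vertical axis), in A375 cells (left) and 1205Lu cells (right). Gray points are the 8086 protein-coding genes tested in both lines with such a peak, and colored points the 5 genes, KIAA0040 by its intronic peak. HRH1 and WDR81 lie at the far right close to 0, and RAB15 and TMEM171 lie at counts under 40 with log2 fold changes of -2.62 and -1.37 in A375 cells.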

How the data were processed

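RNA-seq and Cut&Run of A375 and 1205Lu cells were analyzed. Per the submitters' processing notes and methods, RNA-seq libraries were strand-specific, adapters were removed with cutadapt 1.8.1, reads were aligned to GRCh38 with STAR 2.7.7a, and RSEM 1.3.0 with a Gencode v30 gene model gave the expected counts that the authors deposited, which are whole numbers without normalization. The strand setting of the counting is not given in the sources used here, and RAB15, HRH1 and WDR81 each overlap a gene on the other strand, HRH1 also one on its own strand. For Cut&Run, the authors aligned reads with Bowtie2 2.4.1, called peaks with MACS2 and deposited a raw count per sample in each consensus peak. The sources used here do not give whether peak calling was per sample or pooled. The promoter peaks of HRH1 and WDR81 were left untested, although a test of all near peaks had been planned. Counts in peaks are not library depths.

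The 5 genes, the gene lists and the tests were chosen with earlier results of these data known. In R 4.3.3, edgeR 4.0.16 was run on each line separately (filterByExpr, TMM, quasi-likelihood test, Benjamini-Hochberg adjustment over all genes). The difference between the lines was the interaction over all 12 samples, and CPM came from that table. Peaks were fitted the same way on the FRA1 samples. The chi-square per degree of freedom between 1205Lu replicates 2 and 3 was 1.01 over 8327 peaks with at least 50 counts in the pair and 1.06 over 18088 with at least 20, beside 1.06 to 1.60 and 1.09 to 1.90 for the other pairs, and they were averaged into 1 sample. P-values from them rest on 3 A375 and 2 1205Lu samples. Positions and exon lengths came from GENCODE v44 on GRCh38, in which all peaks lay within the chromosomes. Scaled counts were brought to the median total of the 8 samples. Motifs were searched with Python 3.11.15. Fits were tested on simulated data.

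Genes named were the 5 members, FOSL1, the 3 nearest protein-coding neighbors and any called within 500 kb, called list genes, and the 3 most similar genes. The values of 1 gene under this rule are not reported here. Peaks named were those within 3 kb of a start and the 3 highest per gene and line. MIR22HG was added because its start lies in a named peak. Alternatives were DESeq2 1.42.0, upper-quartile normalization, other filters, distances and limits, 1 fit for all samples, a replicate block and each sample left out.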

Additional observations from a re-analysis of the deposited data

Results flagged for a closer look

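For 7 of the 15 named genes beside the members or in their pathways, the change upon silencing differed between the lines at an adjusted p under 0.05. The test was edgeR's interaction over the 12 samples, given as the log2 fold change in A375 minus that in 1205Lu. These 7 are not all, since genes outside the naming rule differed too, such as PRPF8 beside WDR81 at -0.68 and PLCB1 in Gq signaling at 1.65. Of all protein-coding genes, 38.7% did. No explanation was tested for any of the 7. Next to TMEM171, the difference was 0.41 for FCHO2 (SE 0.10, adjusted p = 2.05e-03) and -0.30 for TNPO1 (SE 0.03, adjusted p = 7.79e-09), so these neighbors differed in opposite directions. Next to KIAA0040, it was 0.30 for CACYBP (SE 0.05, adjusted p = 9.76e-06). Next to HRH1, it was -0.48 for ATG7 (SE 0.12, adjusted p = 2.01e-03) and -2.36 for ATP2B2 (SE 0.70, adjusted p = 0.0104), the latter on A375 levels of 0.287 and 0.155 CPM. Next to WDR81, it was 0.42 for TLCD2 (SE 0.14, adjusted p = 0.0271). In Gq signaling, it was -0.65 for RGS3 (SE 0.11, adjusted p = 3.52e-05). The groups of 3 samples were too small to test for single samples that stand apart.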

How the results depend on the processing

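The log2 fold changes of the 5 genes and their differences between the lines kept their direction in all 205 alternative values and moved by less than 1 SD between replicates. The replicate numbers did not pair the samples, with correlations of same-numbered deviations between -0.05 and 0.04, and with the replicate block 720 genes were called in A375 cells instead of 719, 394 in 1205Lu cells instead of 408 and 5608 for the interaction instead of 5751, the other counts staying within 1.5 times. Neighbor calls numbered 1 in A375 cells, 0 to 4 with a sample left out (0 without si-FRA1 replicate 1, 4 without si-FRA1 replicate 2) and 2 within 1000 kb. They numbered 2 in 1205Lu cells, 2 to 3 with a sample left out and 1 within 250 kb. Peaks enriched over IgG numbered 25 in A375 cells, 39 at 2 times IgG, 12 at 8 times, 2 with scaled counts and 16 within 10 kb. In 1205Lu cells they numbered 9, 5 at 8 times and 5 with scaled counts. Member peaks with more FRA1 in A375 cells numbered 7, and 4 with DESeq2. Those with more in 1205Lu cells numbered 12, and 5 within 10 kb. Of 429 alternative values for single peaks, 11 lost the call and no called value turned, while 16 values of 7 uncalled peaks had the other sign. Of 297 for neighbor and list genes, 3 gained and 2 lost it. Counts under about 10 per sample, as in many 1205Lu peaks, limit the peak comparisons. The 1 IgG sample per line gives no error for enrichment.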
